A study of Homo sapiens with 4 samples.

Results

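Progress through G2 and mitosis depends on a set of genes that are switched on together late in the cell cycle, and 41 of them were followed here in LASCPC-01 cells treated with fluoxetine. The members were taken by gene symbol from a fixed list of cyclins and kinases, checkpoint genes, kinetochore genes, spindle genes and cytokinesis genes and not by a threshold on their values. All 41 were among the 16376 genes listed, and all 41 passed the minimum mean FPKM of 0.1 that left 12663 genes for the test. FPKM counts the fragments that fall on a gene relative to its length and to all fragments mapped in the library.

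LASCPC-01 is a human neuroendocrine prostate cancer (NEPC) cell line built by combined expression of N-MYC and activated AKT1, a background that the control cells carry too. The label gives the genotype of every sample as WT. RNA was sequenced from 2 samples given PBS, the control, and 2 samples given fluoxetine, an antidepressant that blocks serotonin reuptake. The labels put all of them at day 3 and give no dose, and the titles of the fluoxetine samples also carry the letters PP. The study's results section states 5 µM for 48 h for the sequenced cells. All samples come from 1 cell line and nothing says that they were separate cultures, so the p-values below measure only the spread between these libraries. The design sets 2 libraries against 2, for which the smallest p of an exact two-sided permutation test is 0.33, so the test used was limma, which pools information over all genes.

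The depth behind the values came to 32873603 and 34756748 reads for PBS and 34806710 and 34831389 reads for fluoxetine, recovered from the FPKM themselves. Of the neuroendocrine markers, NCAM1 was between 44.27 and 52.03 FPKM and INSM1 between 21.68 and 24.23 in the 4 libraries, whereas SYP did not exceed 0.629 FPKM and CHGA, CHGB, NEUROD1 and FOXA2 stayed below 0.1. Of the markers of fibroblasts, blood, vessel and liver cells, COL1A1 and CD68 lay between 1.825 and 3.966 FPKM, the others did not exceed 0.2121, ALB was listed at 0 in every library, and their part in the results was not tested. In bulk RNA, a lower level in every cell cannot be told apart from fewer cells in G2 or mitosis.

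Cyclin B with CDK1 drives entry into mitosis, Polo-like and Aurora kinases build and correct the spindle, and the checkpoint proteins hold the anaphase-promoting complex back until every chromosome is attached. The anaphase-promoting complex with CDC20 then destroys securin and cyclin B, and cytokinesis follows. Most of these genes are silenced in G1 by the DREAM complex and switched on in G2 by B-MYB and FOXM1, through a promoter element called the CHR and through CCAAT boxes bound by NF-Y, so their summed RNA is widely read as a measure of the share of dividing cells.

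These promoter letters are shown for the members at the ends of the observed range, AURKB and CCNB1 with the highest log2 fold changes and MKI67 and CENPE with the lowest. Each sequence runs 5′ to 3′ from 250 bases before the start site to 50 after it (RefSeq, GRCh38.p14), and capitals mark TTTGAA or TTTAAA (the CHR letters) and CCAAT on either strand, where CCAAT on the other strand reads ATTGG.
AURKB chr17:8210176-8210475 (minus strand): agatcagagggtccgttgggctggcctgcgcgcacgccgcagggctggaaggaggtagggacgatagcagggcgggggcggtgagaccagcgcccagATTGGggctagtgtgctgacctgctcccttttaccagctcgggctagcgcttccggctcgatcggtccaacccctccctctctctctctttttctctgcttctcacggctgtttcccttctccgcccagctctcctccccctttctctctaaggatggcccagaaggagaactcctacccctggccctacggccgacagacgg
CCNB1 chr5:69166900-69167199 (plus strand): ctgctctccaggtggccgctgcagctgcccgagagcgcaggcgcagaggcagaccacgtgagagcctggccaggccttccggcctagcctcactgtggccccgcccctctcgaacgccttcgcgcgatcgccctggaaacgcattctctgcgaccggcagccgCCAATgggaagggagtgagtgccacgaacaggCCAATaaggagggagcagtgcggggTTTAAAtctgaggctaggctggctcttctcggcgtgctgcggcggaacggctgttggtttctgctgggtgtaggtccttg
MKI67 chr10:128126374-128126673 (minus strand): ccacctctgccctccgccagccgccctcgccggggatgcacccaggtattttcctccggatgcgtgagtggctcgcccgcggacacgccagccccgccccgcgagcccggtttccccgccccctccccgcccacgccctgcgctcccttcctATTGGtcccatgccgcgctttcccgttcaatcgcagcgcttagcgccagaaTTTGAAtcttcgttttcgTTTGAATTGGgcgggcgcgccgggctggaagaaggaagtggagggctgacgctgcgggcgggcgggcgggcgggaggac
CENPE chr4:103198294-103198593 (minus strand): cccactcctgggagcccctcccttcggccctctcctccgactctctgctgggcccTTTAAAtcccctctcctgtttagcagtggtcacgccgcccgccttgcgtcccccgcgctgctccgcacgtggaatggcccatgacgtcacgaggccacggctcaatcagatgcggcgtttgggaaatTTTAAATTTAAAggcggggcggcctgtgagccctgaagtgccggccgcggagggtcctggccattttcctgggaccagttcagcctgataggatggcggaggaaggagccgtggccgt
The AURKB window held 1 CCAAT and no CHR letters. The CCNB1 window held 2 CCAAT and 1 TTTAAA. The MKI67 window held 2 TTTGAA and 2 CCAAT, and the second of each share 1 run of capitals because they overlap. The CENPE window held 3 TTTAAA, 2 of them side by side, and no CCAAT. The GENCODE 29 genes AURKB, CCNB1 and CENPE reach further upstream than these RefSeq start sites, so their windows lie partly or wholly within those gene models.

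A promoter sequence was found for 34 of the 41 members, and 28 of these (82.4%) held the CHR letters, against 24.0% of all 35116 promoters of the same length and 15.4% of those of the other genes tested. CCAAT was present in 25 (73.5%), against 34.6% of all promoters and 36.9% of those of the other genes tested. In 17 of the 34 there were 2 or more, against 10.8% and 13.9%. Both motifs occurred in 22 members (64.7%), against 9.27% of all promoters and 6.25% of those of the other genes tested. The rule for the members did not use promoter sequence, and a match of letters is not a bound site. In the RNA, the 22 members with both motifs had a median log2 fold change of 0.00, fluoxetine against PBS, and the 12 without both had -0.01. The 6 members without CHR letters had a median of 0.02 and the 28 with them -0.00.

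No difference was detected for any of the 41 genes after adjustment. With limma on log2(FPKM + 0.1) and Benjamini-Hochberg adjustment over all 12663 genes, 0 members had an adjusted p under 0.05, against 30 genes in all (0.237%), and the smallest adjusted p of a member was 0.497. At an unadjusted p under 0.05 there were 3 members, AURKB, CCNB1 and BIRC5, all higher in fluoxetine, which is 7.32% of the members against 8.51% of all genes tested. Without the variance trend in limma there were 0 such members, and the share over all genes was not counted in that fit. By voom on the recovered reads 0 members passed after adjustment, against 0.384% of the 14063 genes in that fit, and 5 members (12.2%) before it, against 10.7%. In fluoxetine, 22 members had a lower and 19 a higher mean, against 7156 lower and 5507 higher of all genes tested. The split of the members moved to 28 and 13 when FPKM were rescaled to TPM. It moved to 13 and 28 when each library was centred on its median gene. The median log2 fold change of all genes tested moved too, from -0.021 to -0.069 under TPM and to 0.005 under median centring. The median log2 fold change was -0.01 for the members and -0.02 for all genes tested, and the members ranged from -0.18 to 0.21, with standard errors between 0.07 and 0.14.

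The genes were abundant in these cells. Their mean FPKM had a median of 40.99 against 7.942 for all genes tested, 31 of the 41 lay above the 75th percentile, and each member had between 245 and 24688 reads in a library. The 95% interval of the difference (limma, unadjusted) lay within a 1.2-fold change either way for 29 members, within 1.3-fold for 40 and within 1.4-fold for all 41, and for 0 of them within 1.1-fold. In this fit, a change larger than 1.4-fold in either direction therefore lay outside the interval of every member. The intervals rest on limma with its trend of variance on level. They were not counted under the other settings, so the bound holds for this fit only. The median absolute log2 fold change between treatments was 0.043 for the members, smaller than their median absolute difference between replicates, which was 0.076 in PBS and 0.070 in fluoxetine. For all genes tested the corresponding values were 0.098, 0.106 and 0.114. In 28 members the difference between treatments was smaller than the larger of the 2 replicate differences, a count not made over all genes tested. Group means vary less than single libraries. These comparisons therefore favour a smaller treatment difference in any gene without an effect, and they do not set the members apart.

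Both fluoxetine libraries lay below both PBS libraries in 6 members (14.6%, against 24.8% of all genes tested), namely CENPE, CENPF, CCNA2, TOP2A, BUB1 and KIF11. Both lay above in 8 members (19.5%, against 16.7%), namely AURKB, CCNB1, BIRC5, BUB3, KIF23, CDCA8, MAD2L1 and KIF2C. The groups overlapped in the other 27.

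**Figure D1:**
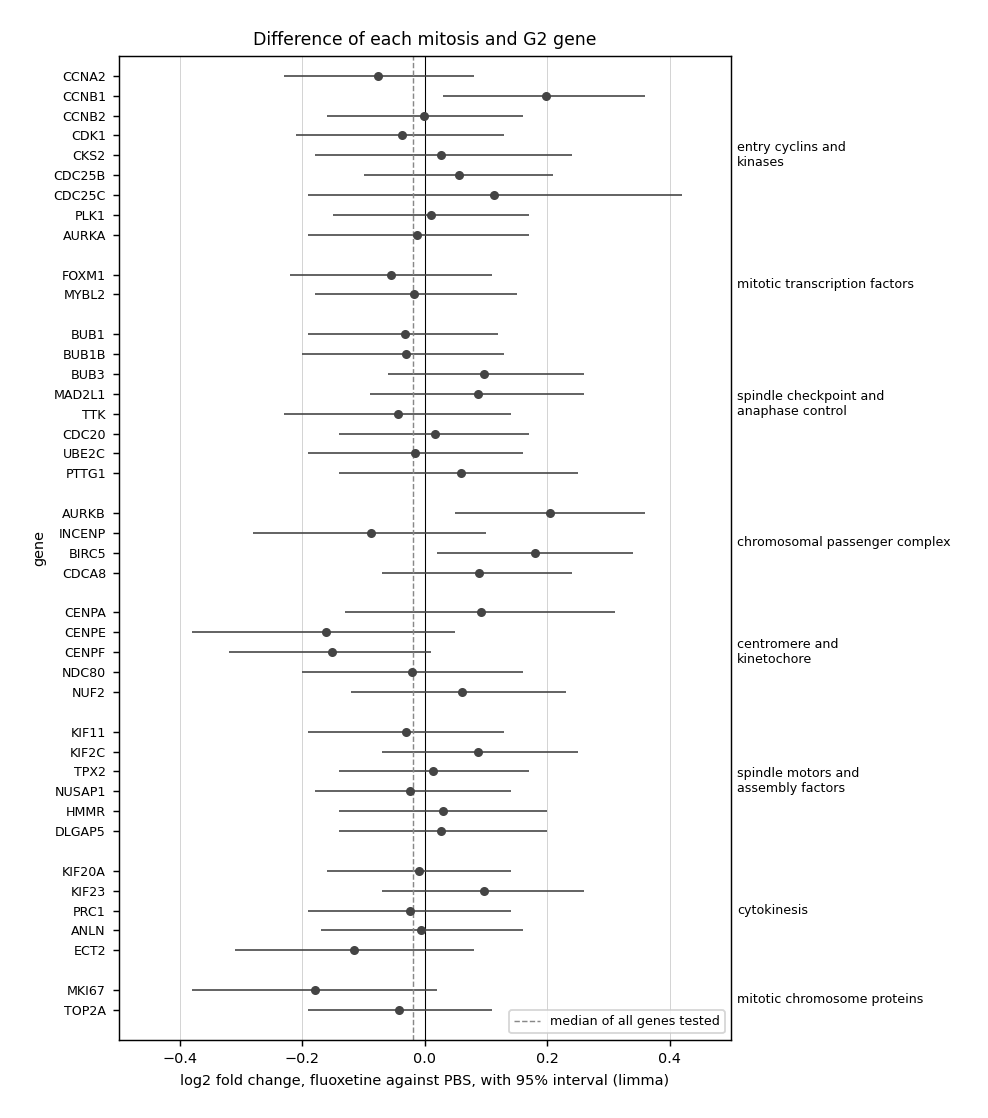
log2 fold change of each gene, fluoxetine against PBS, with its 95% interval from limma, and the median of all genes tested as a dashed line at -0.02. In this fit the intervals of AURKB, CCNB1 and BIRC5 do not include 0 before adjustment and those of the other 38 do. Without the variance trend in limma, 0 members had an unadjusted p under 0.05.

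Among the 9 cyclins, kinases and phosphatases of mitotic entry, 4 were lower and 5 higher in fluoxetine, with a median log2 fold change of 0.01 and a range of -0.08 to 0.20. CCNB1 encodes cyclin B1, the CDK1 partner whose build-up starts mitosis, and lies at chr5:69167010-69178245 (GENCODE 29, GRCh38, plus strand). Its levels were 155.8 and 143.5 FPKM in PBS and 176.0 and 167.2 in fluoxetine. Both fluoxetine libraries were the higher ones, at a log2 fold change of 0.20 (SE 0.08, limma adjusted p = 0.535), and without 1 library in turn the value lay between 0.14 and 0.26. CCNA2, cyclin A2 of S phase and G2, had 59.30 and 61.81 FPKM in PBS and 58.96 and 55.93 in fluoxetine, a log2 fold change of -0.08 (SE 0.07, limma adjusted p = 0.753). The cyclins A and B1 thus stood on opposite sides of 0 without either passing the test. CCNB2, the other B-type cyclin here, had a log2 fold change of -0.00 and lay between 62.39 and 67.09 FPKM.

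CDK1, the kinase of mitotic entry, had 40.17 and 42.88 FPKM in PBS and 42.39 and 38.54 in fluoxetine, with overlapping groups and a log2 fold change of -0.04 (SE 0.08, limma adjusted p = 0.902). PLK1, the Polo-like kinase, had 124.5 and 137.4 FPKM in PBS and 131.9 and 131.4 in fluoxetine, both of these between the PBS values (log2 fold change 0.01). AURKA, the spindle pole Aurora kinase, had 41.70 and 43.06 FPKM in PBS and 45.03 and 39.22 in fluoxetine, where the fluoxetine replicates lay on either side of the PBS ones (log2 fold change -0.01). CKS2, a small subunit of CDK complexes, was the most abundant member per length. It had 216.2 and 173.6 FPKM in PBS and 197.1 and 197.8 in fluoxetine, so the 2 PBS replicates differed more from each other than the group means did (log2 fold change 0.03, SE 0.10). The phosphatase gene CDC25C, which activates CDK1, was the least abundant at 3.775 and 4.402 FPKM in PBS and 5.021 and 3.883 in fluoxetine. Its groups overlapped and its interval was the widest of the members, a log2 fold change of 0.11 with a 95% interval of -0.19 to 0.42. CDC25B, of the same family, lay between 55.14 and 60.36 FPKM.

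Both transcription factors that switch this programme on had overlapping groups and means lower in fluoxetine. MYBL2 stood at 0.01 under median centring, 0.02 without PBS replicate 2 and 0.04 without fluoxetine replicate 2, and FOXM1 at 0.01 without PBS replicate 2. FOXM1 had 39.76 and 43.88 FPKM in PBS and 39.58 and 40.77 in fluoxetine (log2 fold change -0.06, SE 0.08, limma adjusted p = 0.838). MYBL2, which encodes B-MYB, had 85.96 and 90.92 FPKM in PBS and 90.95 and 83.96 in fluoxetine (log2 fold change -0.02). The highest and the lowest library of MYBL2 were thus both fluoxetine libraries.

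The 8 genes of the spindle checkpoint and anaphase control were split evenly, 4 lower and 4 higher, with a range of -0.04 to 0.10. CDC20, the activator of the anaphase-promoting complex, had 126.8 and 127.6 FPKM in PBS and 131.4 and 125.9 in fluoxetine (log2 fold change 0.02, SE 0.07). BUB1B encodes the checkpoint protein BubR1 and had 41.11 and 45.09 FPKM in PBS and 41.35 and 43.00 in fluoxetine, the latter both inside the PBS range (log2 fold change -0.03). MAD2L1, the MAD2 gene, had 15.74 and 14.92 FPKM in PBS and 16.78 and 15.78 in fluoxetine. Its fluoxetine libraries were both higher, one of them barely above the nearer PBS library, with a log2 fold change of 0.09 (limma adjusted p = 0.755). UBE2C, the ubiquitin-conjugating enzyme of the complex, had 118.1 and 121.6 FPKM in PBS and 125.8 and 111.7 in fluoxetine (log2 fold change -0.02). PTTG1, the securin gene, had 150.3 and 157.2 FPKM in PBS and 175.4 and 146.2 in fluoxetine (log2 fold change 0.06). Fluoxetine replicate 1 was the highest library in both of these genes and replicate 2 the lowest. BUB1, BUB3 and the kinase gene TTK had log2 fold changes of -0.03, 0.10 and -0.04.

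The chromosomal passenger complex corrects faulty attachments of chromosomes and later moves to the spindle midzone. It consists of 4 proteins, and their genes had the highest median log2 fold change of the 8 role groups, 0.13, with 3 members higher and 1 lower and none past the adjusted threshold. AURKB, its kinase, lies at chr17:8204733-8210600 (GENCODE 29, GRCh38, minus strand). It had 94.52 and 96.91 FPKM in PBS and 113.1 and 107.7 in fluoxetine. Both fluoxetine libraries were higher, by 15.3% between the group means, at a log2 fold change of 0.21 (SE 0.07, limma adjusted p = 0.497). BIRC5, the survivin gene at chr17:78214186-78225636 (plus strand), had 44.32 and 40.27 FPKM in PBS and 48.43 and 47.31 in fluoxetine. Its libraries did not overlap between groups either, at a log2 fold change of 0.18 (SE 0.08, limma adjusted p = 0.552), which was 0.11 without PBS replicate 2 and 0.25 without PBS replicate 1. CDCA8, the borealin gene, had a log2 fold change of 0.09, whereas INCENP, the scaffold that binds the kinase, stood at -0.09 with overlapping groups. INCENP had a 95% interval of -0.28 to 0.10 and stood at 0.00 without PBS replicate 2. Whether it differed in direction from the others was therefore not resolved.

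Of the 5 centromere and kinetochore genes, 3 were lower and 2 higher, with a range of -0.16 to 0.09. CENPE, the kinetochore motor that brings chromosomes to the spindle equator, lies at chr4:103105806-103198409 (GENCODE 29, GRCh38, minus strand). It had 6.760 and 7.377 FPKM in PBS and 6.398 and 6.205 in fluoxetine. Both fluoxetine libraries were the lower ones, at a log2 fold change of -0.16 (SE 0.10, limma adjusted p = 0.627), which was -0.10 without PBS replicate 2. CENPF, an outer kinetochore protein gene at chr1:214603195-214664588 (plus strand), had 27.09 and 29.13 FPKM in PBS and 24.93 and 25.65 in fluoxetine. It too did not overlap between groups, at a log2 fold change of -0.15 (SE 0.08, limma adjusted p = 0.598), which was also -0.10 without PBS replicate 2. CENPA, the histone variant that marks the centromere, had 19.80 and 15.89 FPKM in PBS and 19.07 and 18.75 in fluoxetine, both of these between the PBS libraries (log2 fold change 0.09). NDC80, of the complex that holds microtubules, had 15.61 and 14.41 FPKM in PBS and 15.15 and 14.42 in fluoxetine (log2 fold change -0.02), and its partner NUF2 had a log2 fold change of 0.06.

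The 6 spindle motors and assembly factors were the least spread of the groups of 4 or more genes, with 2 lower, 4 higher and a range of -0.03 to 0.09. KIF11, the motor that pushes the spindle poles apart, had 23.31 and 23.68 FPKM in PBS and 22.76 and 23.23 in fluoxetine (log2 fold change -0.03, SE 0.07). TPX2, which activates Aurora A on the spindle, had 78.56 and 82.84 FPKM in PBS and 83.41 and 79.42 in fluoxetine (log2 fold change 0.01). The other 4 genes, KIF2C, NUSAP1, HMMR and DLGAP5, lay at 0.09, -0.02, 0.03 and 0.03 on the same scale. Of these 4, the libraries of KIF2C alone did not overlap between groups.

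Among the 5 cytokinesis genes, 4 were lower and 1 was higher, with a median log2 fold change of -0.01. KIF20A, a motor of the central spindle, had 40.21 and 40.98 FPKM in PBS and 39.74 and 40.86 in fluoxetine (log2 fold change -0.01, SE 0.07). PRC1, the microtubule bundler of the midzone, had 67.32 and 67.77 FPKM in PBS and 69.67 and 63.36 in fluoxetine, one above and one below both PBS libraries (log2 fold change -0.02). ECT2 encodes the exchange factor that activates RhoA at the cleavage furrow and had 12.15 and 13.25 FPKM in PBS and 12.28 and 11.16 in fluoxetine. It had the lowest mean difference of this group with overlapping libraries, a log2 fold change of -0.12 (SE 0.09, limma adjusted p = 0.704). That value was -0.05 without PBS replicate 2 or fluoxetine replicate 2 and -0.18 without either of the others. KIF23 and ANLN stood at 0.10 and -0.01.

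MKI67 encodes Ki-67, the coat protein of mitotic chromosomes used to stain dividing cells, and lies at chr10:128096659-128126385 (GENCODE 29, GRCh38, minus strand). It had the lowest log2 fold change of the 41. Its levels were 46.25 and 53.70 FPKM in PBS and 41.14 and 47.03 in fluoxetine. Fluoxetine replicate 2 lay above PBS replicate 1, so the groups overlapped, at a log2 fold change of -0.18 (SE 0.09, 95% interval -0.38 to 0.02, limma adjusted p = 0.598). Without fluoxetine replicate 1 the value was -0.08 and without PBS replicate 2 it was -0.07, whereas it was -0.29 without PBS replicate 1 and -0.28 without fluoxetine replicate 2. TOP2A, the topoisomerase that untangles sister chromatids, had 58.13 and 58.99 FPKM in PBS and 56.69 and 57.04 in fluoxetine. These did not overlap, but the difference was small, a log2 fold change of -0.04 (SE 0.07, limma adjusted p = 0.872).

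The order of the members by fold change followed gene length. Across the 41 genes, Spearman's rho of the log2 fold change with gene length was -0.54, and across all 12663 genes tested it was -0.342, a description over genes that share libraries and are not independent. The 10 shortest members, from 616 to 2029 bases, had 2 lower and 8 higher in fluoxetine with a median log2 fold change of 0.07. The 10 longest, from 4838 to 13228 bases, had 8 lower and 2 higher with a median of -0.07. All genes tested in the same length ranges had medians of 0.06 (762 lower and 1567 higher) and -0.07 (3143 lower and 1143 higher), so the long and short members stood where other genes of their length stood. In single libraries, rho of a gene's deviation from its mean with length was -0.434 in fluoxetine replicate 1, against 0.129, 0.290 and 0.0543 in PBS replicate 1, PBS replicate 2 and fluoxetine replicate 2. Without fluoxetine replicate 1 the medians of the shortest and longest members were 0.01 and -0.03. Without fluoxetine replicate 2 the same medians were 0.10 and -0.05.

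With the length trend removed within each library, these medians were -0.01 for both. The values of the members lowest before the removal were then closer to 0, at -0.05 for MKI67, -0.07 for CENPE and -0.05 for CENPF. Those of the members highest before it were smaller, at 0.14 for AURKB, 0.16 for CCNB1 and 0.16 for BIRC5. The ends of the range changed, to BUB3 at 0.17 (from 0.10) and CKS2 at -0.10 (from 0.03). No member passed the adjusted threshold. The 4 genes of the passenger complex then had a median of 0.08. The cause of the trend was not tested.

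The median level of the members varied between replicates of the same treatment. The median deviation of the members from their own means was -0.016 and 0.019 in PBS replicates 1 and 2 and 0.032 and -0.017 in fluoxetine replicates 1 and 2, on the log2 scale. PBS replicate 2 was above PBS replicate 1 in 28 members, and fluoxetine replicate 2 was above fluoxetine replicate 1 in 14. The replicates differed by more than counting error (95%) in 23 members in PBS and 24 in fluoxetine. These counts were not made over all genes. Over all genes with enough reads, chi-square per degree of freedom between replicates was 9.27 in PBS and 11.19 in fluoxetine. Counting error alone gives about 1, so the excess was not confined to the members.

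Other genes of G2 and mitosis, 126 in 7 further lists, were read beside the members, and 0 passed the adjusted threshold by limma, 61 were lower and 65 higher, and their median log2 fold change was 0.01. At an unadjusted p under 0.05 by limma there were 4 of the 126, against 8.51% of all genes tested. The 18 genes of the anaphase-promoting complex, its partners and regulators, and separase had 13 higher and 5 lower with a median of 0.06. ANAPC15, a subunit that helps turn the checkpoint off, had 9.725 and 8.968 FPKM in PBS and 11.21 and 11.43 in fluoxetine (log2 fold change 0.27, limma adjusted p = 0.447). The 18 condensin and cohesin genes, which fold and hold chromosomes, had 12 lower and 6 higher with a median of -0.05, or 0.01 with the length trend removed. NCAPH2, a condensin II subunit gene, had 20.26 and 15.47 FPKM in PBS and 20.94 and 21.20 in fluoxetine, where PBS replicate 2 stood apart as the low library (log2 fold change 0.25, limma adjusted p = 0.557).

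The largest difference in these lists was that of MAD2L1BP, which encodes p31comet, the protein that strips MAD2 from its targets when the checkpoint ends. It had 12.54 and 11.06 FPKM in PBS and 17.03 and 14.68 in fluoxetine. Both fluoxetine libraries were higher, at a log2 fold change of 0.42 (SE 0.10, limma adjusted p = 0.199), beside 0.09 for MAD2L1 itself. Among 27 further kinetochore genes, 13 lower and 14 higher, CENPM of the inner kinetochore had 17.93 and 17.62 FPKM in PBS and 22.09 and 21.71 in fluoxetine (log2 fold change 0.30, limma adjusted p = 0.274). CENPW, also of the inner kinetochore, had a log2 fold change of 0.21 (limma adjusted p = 0.579). CENPM and CENPW are short genes, of 1775 and 1228 bases, and their values were 0.25 and 0.14 with the length trend removed. MAD2L1BP then stood at 0.37.

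Of 26 further spindle genes, 12 were lower and 14 higher, and the smallest p belonged to CKAP2L and ASPM, at log2 fold changes of -0.21 and -0.17 (limma adjusted p = 0.579 and 0.624). With the length trend removed, ASPM, a spindle pole gene of 10863 bases, stood at -0.05 and CKAP2L at -0.18. The 18 further G2 and entry regulators had 10 lower and 8 higher, with PBK, a mitotic kinase gene, at 0.16 and GTSE1 at -0.14. The 10 further checkpoint genes had 4 lower and 6 higher, with SGO2, which protects centromeric cohesion, at -0.13. The 9 further cytokinesis genes had 5 lower and 4 higher, with DEPDC1 and the citron kinase gene CIT both at -0.13. ANAPC5 was at 0.14 and the cohesin factor gene PDS5A at -0.12.

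The regulators above the programme were read as well. The 11 DREAM and MuvB subunits tested, which silence these genes in G1 and G0 or bind B-MYB in G2, had 3 lower and 8 higher with a median log2 fold change of 0.04. LIN54, the subunit that binds the CHR letters, had 3.327 and 3.911 FPKM in PBS and 3.129 and 3.054 in fluoxetine. Both fluoxetine libraries were lower, at a log2 fold change of -0.22 (SE 0.13, limma adjusted p = 0.623). E2F5, a repressive E2F, stood at -0.12 with overlapping groups.

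Exons of 9 members overlap those of another listed gene in GENCODE 29, namely ANLN, BUB1B, CCNA2, CDC25C, CENPA, FOXM1, KIF20A, NUF2 and PLK1. BUB1B and CENPA share a strand with the overlapping gene. The strand setting of the counting is not given in the sources used here. For these genes, reads in the shared exons may have been left out of the FPKM or may include those of the neighbour.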

How the data were processed

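RNA of LASCPC-01 cells was sequenced from 2 PBS and 2 fluoxetine samples, grouped by their treatment labels. The authors deposited 1 FPKM table. Per the submitters' processing notes, fastp, HISAT2 and HTSeq were used with GRCh38, while the annotation is not given in the sources used here. The labels name a stranded TruSeq kit and the study's methods a VAHTS kit.

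log2(FPKM + 0.1) of 12663 genes (mean FPKM 0.1 or more) was tested with limma 3.58.1 in R 4.3.3 (lmFit, eBayes with trend), with Benjamini-Hochberg adjustment. Fold changes on this scale understate those of low genes. Depths and reads were recovered for 16079 of 16080 genes above 0, as the smallest whole-base gene length that gave whole reads (within 0.005) in every library, with depths voted by GENCODE 29 exon lengths. True reads may be multiples of these. Tables and figures were made in Python 3.11.15 with pandas 2.3.3, numpy 2.4.6 and matplotlib 3.10.9. The tests were checked on simulated data.

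Members and gene lists were chosen with earlier results of these data known. Members with values in every library were 22 fixed leading members, the 4 lowest and 4 highest by fold change and the highest and lowest by FPKM. Of each other list, the 2 genes with the smallest p were named. The processing was varied by a pseudocount of 1 or 0.01, by dropping the filter or raising it to 1 FPKM, and by TPM, quantile normalization, median centring, eBayes without trend or robust, a replicate block, lowess removal (span 0.3) of the length or GC trend, voom (at least 10 reads) and leaving out each library. The results for some marker genes are not reported here.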

Additional observations from a re-analysis of the deposited data

How the results depend on the processing

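No member passed the adjusted threshold under any of the 18 alternatives, with smallest adjusted p-values between 0.294 and 0.989 by limma. All 27 members named with their values likewise stayed on the same side of it. The count of members lower in fluoxetine, 22, was 13 under median centring and 11 with the GC trend removed, and lay between 13 and 26 when 1 library was left out. The median log2 fold change of the members, -0.007, was -0.054 under TPM, -0.041 under quantile normalization and 0.034 with the GC trend removed. It lay between -0.028 and 0.038 when 1 library was left out. The median of all genes tested, -0.021, was -0.069 under TPM and -0.003 under quantile normalization. The 14 members whose groups did not overlap were 14.6% below and 19.5% above, against 24.8% and 16.7% of all genes tested. They became 23 to 29 with 1 library left out, since 1 library then stands for a group and separates more easily. The share over all genes was not counted there, so these counts say nothing about the members. The 30 calls over all genes became 0 without the filter and 0 without the trend in eBayes, 16 under quantile normalization, 54 by voom and 2 to 12 with 1 library left out.

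Small differences took the other sign as follows, and the cause was not tested. TPM gave log2 fold changes of -0.04 for PLK1, -0.03 for CDC20, -0.04 for TPX2 and -0.02 for CKS2. Quantile normalization gave -0.05 for PLK1, -0.05 for CDC20, -0.01 for PTTG1, -0.04 for TPX2 and -0.06 for CKS2. Median centring gave 0.01 for AURKA, MYBL2, UBE2C and NDC80, 0.02 for KIF20A and 0.00 for PRC1. Removing the length trend gave -0.02 for PLK1, -0.04 for CDC20, -0.03 for PTTG1, 0.01 for KIF11 and TOP2A and -0.10 for CKS2, the same with the replicate block added. Removing the GC trend gave 0.04 for CDK1, NDC80 and KIF11, 0.00 for PLK1, 0.01 for AURKA, BUB1B and KIF20A and 0.02 for TOP2A. With 1 library left out, the ranges were -0.11 to 0.03 for CDK1, -0.06 to 0.08 for PLK1, -0.11 to 0.09 for AURKA, -0.13 to 0.01 for FOXM1, -0.07 to 0.04 for MYBL2, -0.01 to 0.05 for CDC20, -0.10 to 0.04 for BUB1B, -0.10 to 0.07 for UBE2C, -0.07 to 0.19 for PTTG1, -0.07 to 0.25 for CENPA, -0.08 to 0.04 for NDC80, -0.03 to 0.05 for TPX2, -0.03 to 0.01 for KIF20A, -0.09 to 0.04 for PRC1, -0.07 to 0.29 for CDC25C and -0.13 to 0.19 for CKS2.

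Deviations from the group mean correlated at 0.0351 between libraries of 1 number, and with 2 of them per group the numbers were not taken to pair the samples. With the replicate number as a block, 0 members and 64 genes in all were called, against 0 and 30 without it. Of the genes in the other lists, MAD2L1BP was called with the block (limma adjusted p = 0.031), against 0.199 without it and 0.114 to 0.348 under the scaling, trend removal and voom alternatives.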

Other observations

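Regulators of earlier cell cycle phases were measured in the same libraries. Of 25 G1 and S phase genes, CCND2 was under the FPKM minimum. Of the 24 tested, 9 were lower and 15 higher in fluoxetine, with a median log2 fold change of 0.06. By limma 0 were past the adjusted threshold, and 3 of the 24 were at an unadjusted p under 0.05, against 8.51% of all genes tested. CDK4, the cyclin D kinase gene, had 81.46 and 70.78 FPKM in PBS and 97.50 and 87.31 in fluoxetine, a log2 fold change of 0.28 (limma adjusted p = 0.409). CDC45, a part of the replication helicase, had 22.52 and 23.44 FPKM in PBS and 26.67 and 25.97 in fluoxetine, a log2 fold change of 0.20 (limma adjusted p = 0.535).

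Of 14 CDK inhibitor and p53 pathway genes, 8 were lower and 6 higher, with a median of -0.01. By limma 0 were past the adjusted threshold, and 1 of the 14 was at an unadjusted p under 0.05, against 8.51% of all genes tested. CDKN2C, an inhibitor of CDK4 and CDK6, had 10.63 and 10.83 FPKM in PBS and 12.25 and 12.39 in fluoxetine (log2 fold change 0.20, limma adjusted p = 0.552). MDM2, a p53 target, had 22.24 and 23.69 FPKM in PBS and 20.43 and 21.34 in fluoxetine (log2 fold change -0.14, limma adjusted p = 0.619). CDKN1A, the p21 gene, was named after its values were seen. It had 125.6 and 121.3 FPKM in PBS and 132.2 and 126.5 in fluoxetine (log2 fold change 0.07, limma adjusted p = 0.785).

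Over the 4 libraries, 57 of 10354 genes outside all lists (mean FPKM of 1 or more) had a Pearson r of at least 0.99 with the mean profile of the members, which was -0.016 and 0.007 in PBS and 0.029 and -0.020 in fluoxetine on the log2 scale. The 5 nearest were SWI5, UBE2Q1, DDX42, NUFIP1 and CHRNB1. With 4 points such values are a description.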
